A study of Mus musculus with 9 samples.

Results

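The genes described here encode the fatty acid binding proteins (FABPs) found in liver RNA and CD36, the receptor through which long-chain fatty acids are taken up at the cell surface. They are Fabp1, Fabp2, Fabp4, Fabp5, Fabp7 and Cd36, picked by symbol, 6 of the 33211 genes in the table, and all 6 passed the filter on low counts that left 14220 genes for testing. They were named with the fold changes of the comparison below already known, so those fold changes and p-values describe the genes and are no independent support for a difference.

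Liver RNA was sequenced from male wild-type C57BL/6 mice, the common inbred laboratory strain (C57BL6/J in the study's methods), that were 8 weeks old at the start and ate a high-fat diet for 7 weeks. Both groups ate the same purchased diet, kept for 7 days before use. It was kept at -20 °C in a freezer (HFDfre, n = 5) or at 4 °C in a fridge (HFDfri, n = 4). The study reported relatively more medium-chain triglyceride and less long-chain triglyceride and diglyceride in the fridge diet. Each library carries a label of its own, but the labels do not say that each is a separate mouse, so p-values measure the spread between libraries. No group on a standard diet was analysed here, so every value compares the 2 storage conditions and not a high-fat with a standard diet. Storage and the fat make-up of the diet as eaten cannot be told apart.

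FABPs are small cytosolic proteins that hold a long-chain fatty acid in a barrel-shaped cavity and carry it to membranes, to enzymes and to nuclear receptors. FABP1 is the form of hepatocytes and FABP2 that of the intestinal lining. FABP4 is best known from adipocytes, macrophages and capillary endothelium, FABP5 from skin and macrophages, and FABP7 from glia in the brain. CD36 is a scavenger receptor of the plasma membrane. Fabp1 and Cd36 are textbook targets of the peroxisome proliferator-activated receptors (PPARs), which bind DNA together with RXR at paired half-sites.

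The library totals ran from 58614917 to 69353439 estimated counts. A ribosomal RNA-like locus, Gm26924, took from 0.466% to 11.1% of them, and was under 3% in HFDfre 3 and 5 and in HFDfri 1, 2 and 4. All 7 hepatocyte markers examined were present, with albumin (Alb) between 52047 and 75708 CPM (counts scaled to a common library size by the TMM method of edgeR). Among low values, 4 was found 3990 times over all genes and libraries and 3 only 2172 times, so the number of counts that 1 read pair gave is uncertain, and with it the counting error of low genes.

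Sequence before the start site of transcription was available in the RefSeq promoter table (GRCm38.p6) for 4 of the 6 genes, Fabp1, Fabp2, Fabp7 and Cd36. Fabp4 and Fabp5 were not analysed in this way. It was searched on both strands for the PPAR type of paired site, AGGTCANAGGTCA, in which AGGTCA half-sites are spaced by 1 base. The closest match in each window is a description of letters and not a measured binding site. In Fabp1 it differed from the motif at 1 position and lay 67 to 55 bases before the RefSeq start, at chr6:71199812-71199824. A match at least that close is held by 0.559% of the 32544 promoters in the table. In Cd36 the closest match differed at 2 positions, 63 to 51 bases before the start, at chr5:17835947-17835959, and 3.88% of promoters hold one at least that close. The RefSeq start used for Cd36 lies inside the annotated span of the gene, downstream of its outermost start. That of Fabp1 also lies inside the annotated gene, which begins at 71199827, just after the matched bases. In Fabp2 and Fabp7 the closest match differed at 3 positions, as close as in 24.7% of promoters. The single half-site AGGTCA, which is part of the paired site, is in the windows of Fabp1, Fabp7 and Cd36 and in 16.2% of all promoters. The upstream stretches of Fabp1 (chr6:71199629-71199826, plus strand) and Cd36 (chr5:17835897-17836146, minus strand) are shown because these hold the closest matches. The Fabp1 stretch stops where the annotated gene begins, short of the RefSeq start. Capitals mark the matched bases, which read the motif on the opposite strand of the gene.
Fabp1: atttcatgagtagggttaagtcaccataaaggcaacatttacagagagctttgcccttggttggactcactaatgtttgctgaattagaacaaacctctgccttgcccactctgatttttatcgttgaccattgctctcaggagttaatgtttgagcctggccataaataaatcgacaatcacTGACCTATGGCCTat
Cd36: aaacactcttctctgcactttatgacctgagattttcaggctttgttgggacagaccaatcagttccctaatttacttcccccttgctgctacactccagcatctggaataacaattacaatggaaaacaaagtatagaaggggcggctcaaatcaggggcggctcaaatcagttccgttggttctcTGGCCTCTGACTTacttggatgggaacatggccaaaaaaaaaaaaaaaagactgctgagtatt

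Levels can be set side by side between genes only per length, as CPM divided by the length in kilobases of the principal GENCODE transcript (553 bases for Fabp1, 965 for Fabp2, 896 for Fabp4, 987 for Fabp5, 804 for Fabp7 and 3399 for Cd36). On that scale Fabp1 was at 9165 ± 1481 (SD, n = 5) in HFDfre and 7077 ± 1533 (SD, n = 4) in HFDfri, far above every other gene described here. Fabp2 came next in both groups, at 188 ± 25.1 and 134 ± 25.7 CPM per kilobase. Fabp1 made up between 97.4% and 98.1% of the summed CPM per kilobase of the 5 FABP genes in every library, with the ranges of the groups one inside the other.

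The order of the low genes was not the same in both groups. In HFDfre, Cd36 (16.5 ± 7.10 CPM per kilobase) was followed by Fabp4 (7.14 ± 2.01), Fabp5 (5.38 ± 2.06) and Fabp7 (2.47 ± 0.558), and each of these neighbours overlapped the next in its libraries except Fabp5 and Fabp7, whose libraries were apart (lowest Fabp5 3.36, highest Fabp7 3.06). In HFDfri, Fabp5 came next after Fabp2 at 22.3 ± 12.2, and its lowest library (9.79) lay above the highest for Cd36 (8.19). There Cd36 (7.14 ± 1.16 CPM per kilobase) lay above Fabp4 (5.12 ± 0.287) with no more than a narrow gap between 5.53 and 5.52, and Fabp7 was lowest at 1.38 ± 0.455.

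The comparison of HFDfri with HFDfre asks how storage of the diet moved these genes. Fabp5 rose about 4-fold in HFDfri, and the other 5 genes had lower estimates there, most of all Cd36. With edgeR's quasi-likelihood test, 1 of the 6 genes had an adjusted p under 0.05, against 1.05% of all tested genes. All 6 had an unadjusted p under 0.05, as had 21.2% of all tested genes. The libraries of the groups did not overlap for 2 of the 6, Fabp5 and Cd36, as for 7.69% of all tested genes (4.02% higher and 3.66% lower in HFDfri). DESeq2 gave an adjusted p under 0.05 to 4 of the 6 (Fabp2, Fabp5, Fabp7 and Cd36), and to 9.80% of the genes for which it gave one (5.23% higher and 4.57% lower). Since the genes were named with this contrast known, nothing is read from these counts.

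**Figure D1:**
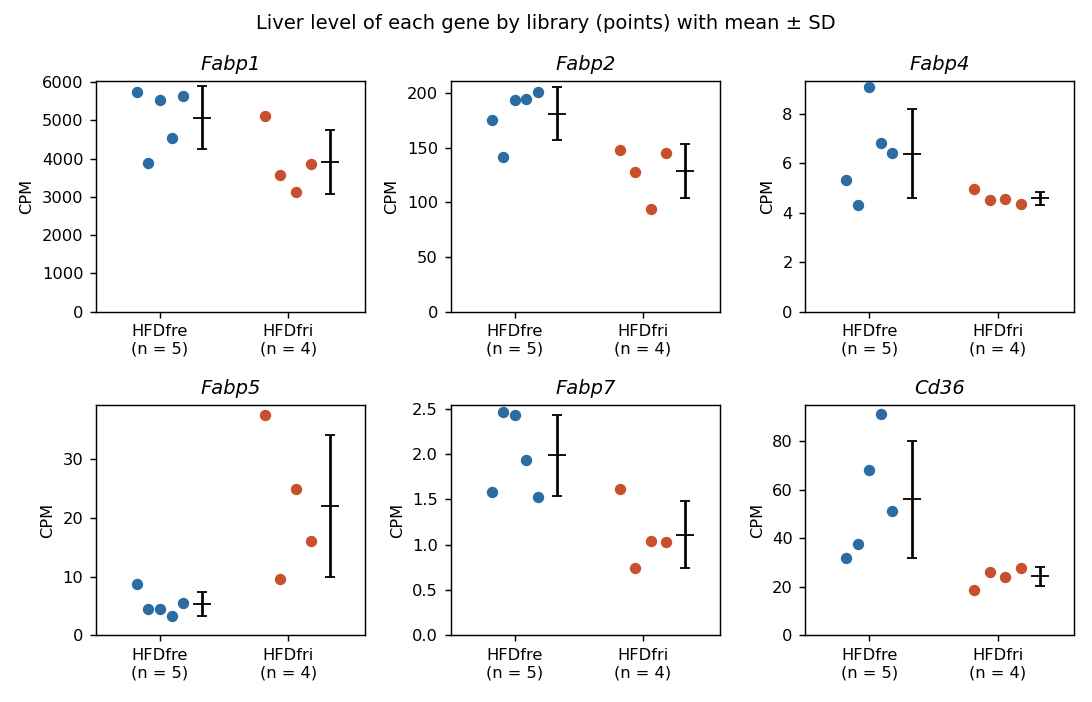
Level in CPM (vertical axes, each starting at 0) of the 6 genes in the 5 HFDfre libraries (blue) and the 4 HFDfri libraries (orange), with the mean and SD in black. The Fabp5 libraries of HFDfri, from 9.66 to 37.5 CPM, all lie above those of HFDfre, and for Cd36 they all lie below, from 18.8 to 27.8 CPM.

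CD36 stands at the entry step. Cd36 (ENSMUSG00000002944, chromosome 5, 17781690 to 17888801, minus strand, GRCm38, 15 exons in the principal transcript) was at 31.9, 37.6, 68.0, 91.3 and 51.3 CPM in HFDfre 1 to 5. It was at 18.8, 26.3, 24.2 and 27.8 CPM in HFDfri 1 to 4. The HFDfre libraries spread over a wide range, with HFDfre 4 the highest, while the HFDfri libraries lay close together and all below the lowest HFDfre library. The means were 56.0 ± 24.1 CPM (SD, n = 5) and 24.3 ± 3.94 CPM (SD, n = 4), 2.31-fold lower in HFDfri by the fitted value. The log2 fold change of -1.21 ± 0.27 (SE) missed the adjusted threshold with edgeR (adjusted p = 0.0566) and passed it with DESeq2 (adjusted p = 2.20e-04). Among the libraries with Gm26924 under 3%, the log2 fold change was -1.30 (edgeR adjusted p = 0.210). Above 3% only HFDfri 3 (24.2 CPM) could be set beside HFDfre 1, 2 and 4 (31.9 to 91.3 CPM), with no test. In bulk liver, fewer cells of a type and less RNA per cell cannot be told apart.

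Fabp5 was the FABP gene that rose. Fabp5 (ENSMUSG00000027533, chromosome 3, 10012548 to 10016607, plus strand, 4 exons) was at 8.66, 4.55, 4.53, 3.31 and 5.51 CPM in HFDfre 1 to 5. It was at 37.5, 9.66, 24.8 and 16.1 CPM in HFDfri 1 to 4. Every HFDfri library was above every HFDfre library, but the gap between the nearest, HFDfre 1 and HFDfri 2, was small, and HFDfri 1 was about 4 times HFDfri 2. The means were 5.31 ± 2.03 CPM (SD, n = 5) and 22.02 ± 12.04 CPM (SD, n = 4). The fitted log2 fold change was 2.05 ± 0.36 (SE; edgeR adjusted p = 0.0322). Without HFDfri 1, the highest library, it was 1.66 (edgeR adjusted p = 0.0210). The adjusted p of edgeR was over 0.05 without HFDfre 2 (0.0547), HFDfre 3 (0.0932), HFDfre 4 (0.0585), HFDfre 5 (0.0774), HFDfri 3 (0.0862) or HFDfri 4 (0.0519), with log2 fold changes that stayed between 1.92 and 2.18. Among the libraries with Gm26924 under 3%, the log2 fold change was 2.07 (edgeR adjusted p = 0.408), and above 3% HFDfri 3 was at 24.8 CPM against 3.31 to 8.66 CPM in HFDfre 1, 2 and 4.

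The value of Fabp5 carries an uncertainty of identity. Its transcript aligned with at least 90% identity over at least 100 bases to those of 5 processed pseudogenes, Fabp5l2, Gm13998, Gm14328, Gm6100 and Gm6166, with 93.6% to 98.3% identity over 336 to 409 bases. Under their GENCODE identifiers these copies had no row of their own among the deposited values, so they could not be analysed here. Whether reads from them were counted as Fabp5 was not tested. The other 5 genes had no such copy among the GENCODE M21 transcripts.

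Fabp5 and Cd36 were at opposite ends of their ranges in 3 libraries. Within HFDfre, Fabp5 was lowest in HFDfre 4 (3.31 CPM), where Cd36 was highest (91.3 CPM), and highest in HFDfre 1 (8.66 CPM), where Cd36 was lowest (31.9 CPM). Within HFDfri, Fabp5 was highest in HFDfri 1 (37.5 CPM), where Cd36 was again lowest (18.8 CPM). The order of the libraries was opposite in each group except between HFDfre 2 and 5 and between HFDfri 2 and 4. HFDfre 5 was above HFDfre 2 for both Fabp5 (5.51 and 4.55 CPM) and Cd36 (51.3 and 37.6 CPM). HFDfri 4 was above HFDfri 2 for both Fabp5 (16.1 and 9.66 CPM) and Cd36 (27.8 and 26.3 CPM). Thus Fabp5 was lowest in HFDfri 2 while Cd36 was highest in HFDfri 4. For Fabp5, HFDfre 2 and 3 were nearly equal (4.55 and 4.53 CPM). The ratio of Cd36 to Fabp5 within a library, which no scaling between libraries can change, was between 3.68 and 27.5 in HFDfre and between 0.501 and 2.72 in HFDfri. No correlation was computed, since the groups form separate clusters and each holds fewer than 6 libraries.

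**Figure D2:**
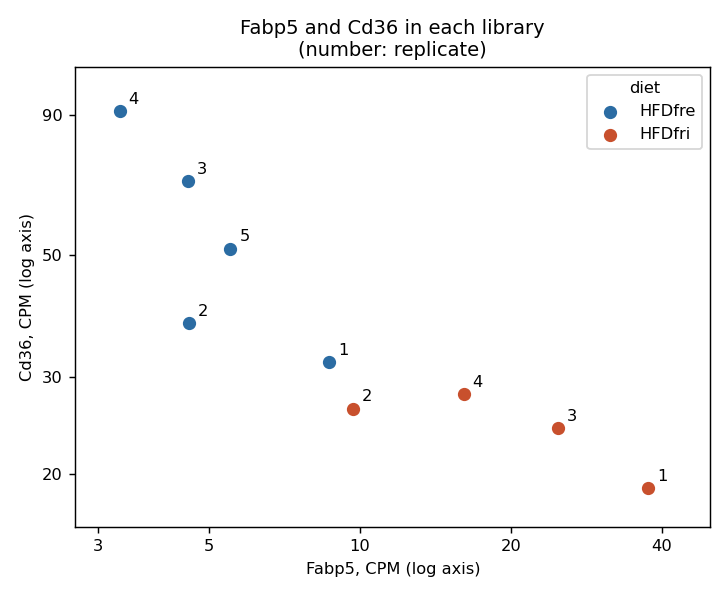
Fabp5 (horizontal, log axis) against Cd36 (vertical, log axis), both in CPM, in each of the 5 HFDfre (blue) and 4 HFDfri (orange) libraries, numbered by replicate. HFDfre 4 (3.31 and 91.3 CPM) and HFDfri 1 (37.5 and 18.8 CPM) stand at opposite ends.

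Fabp1, the cytosolic carrier of hepatocytes, had the smallest fold change of the 6. Fabp1 (ENSMUSG00000054422, chromosome 6, 71199827 to 71205023, plus strand, 4 exons) was at 5748, 3881, 5539, 4543 and 5630 CPM in HFDfre 1 to 5 and at 5105, 3563, 3132 and 3855 CPM in HFDfri 1 to 4. HFDfri 1 lay among the HFDfre libraries, while HFDfri 2, 3 and 4 were below the lowest of them. The means were 5068 ± 819 CPM (SD, n = 5) and 3914 ± 848 CPM (SD, n = 4). The log2 fold change, -0.37 ± 0.17 (SE), missed the threshold (edgeR adjusted p = 0.227). It was -0.54 without HFDfri 1 and -0.28 without HFDfri 3. As a share of all counts, Fabp1 took 0.497% in HFDfre and 0.396% in HFDfri on average.

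Fabp2, known as the intestinal form, was the next most abundant. Fabp2 (ENSMUSG00000023057, chromosome 3, 122895072 to 122899506, plus strand, 4 exons) was at 175, 142, 194, 195 and 201 CPM in HFDfre 1 to 5 and at 148, 128, 94.1 and 146 CPM in HFDfri 1 to 4. The groups overlapped only through HFDfre 2, and HFDfri 3 was the lowest library. The log2 fold change was -0.49 ± 0.15 (SE; adjusted p = 0.104 with edgeR and 0.0236 with DESeq2). Fabp2 lies inside 4933405D12Rik on the opposite strand, which had 0 to 31 counts per library against 6934 to 14386 for Fabp2. The intestinal markers Alpi, Cdx1, Lct and Sis were at 0 in all 9 libraries. A count of 0 allows up to 3 counts, which is 0.0512 CPM in the smallest library. Vil1 did not exceed 0.221 CPM and Cdx2 0.0311 CPM.

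Fabp4, the adipocyte and endothelial form, was low. Fabp4 (ENSMUSG00000062515, chromosome 3, 10204088 to 10208576, minus strand, 4 exons) was at 5.35, 4.31, 9.10, 6.84 and 6.41 CPM in HFDfre 1 to 5 and at 4.95, 4.51, 4.56 and 4.34 CPM in HFDfri 1 to 4. The HFDfri libraries lay within a narrow band at the lower end of the HFDfre range. The log2 fold change was -0.48 ± 0.19 (SE; edgeR adjusted p = 0.185), and it was -0.33 without HFDfre 3 and -0.76 among the libraries with Gm26924 under 3%. The adipocyte markers Adipoq and Plin1 were at 0 in all 9 libraries, and Lep and Retn had at most 6 and 11 counts in a library. The summed level of the 7 adipocyte markers, nearly all of it Cfd and Adrb3, ran from 23.8 to 56.2 CPM in HFDfre and from 15.1 to 33.6 CPM in HFDfri, and 0 of the 3 that could be tested passed the adjusted threshold with edgeR or DESeq2, while 2 (Cidea and Cfd, both lower in HFDfri) had an unadjusted edgeR p under 0.05.

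Fabp7, the glial form, was the lowest of the 6, with 54 to 159 counts per library. Fabp7 (ENSMUSG00000019874, chromosome 10, 57784881 to 57788450, plus strand, 4 exons) was at 1.58, 2.46, 2.43, 1.94 and 1.53 CPM in HFDfre 1 to 5 and at 1.62, 0.747, 1.05 and 1.04 CPM in HFDfri 1 to 4. HFDfri 1 lay inside the HFDfre range and the other 3 HFDfri libraries below it. The log2 fold change was -0.84 ± 0.27 (SE; adjusted p = 0.117 with edgeR and 0.0396 with DESeq2). Without HFDfri 1 it was -1.09 (edgeR adjusted p = 0.0347). The glial marker Sox10 was at 0 in all libraries. The 6 glial markers summed to 8.79 to 10.4 CPM in HFDfre and 5.54 to 8.23 CPM in HFDfri, most of it Aqp4, and 0 of the 4 tested passed with edgeR, 1 (Aqp4, lower) having an unadjusted p under 0.05 and passing with DESeq2.

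Macrophages and endothelium can also hold Fabp4, Fabp5, Fabp7 and Cd36 RNA. Of the 9 Kupffer cell and macrophage markers 8 were tested, and 0 passed the adjusted threshold with edgeR or DESeq2 or had an unadjusted edgeR p under 0.05. Their sum was 78.2 to 166 CPM in HFDfre and 88.7 to 119 CPM in HFDfri. The median of their log2 fold changes was -0.17. Of 8 endothelial markers 0 passed with either tool and 1 (Emcn, lower) had an unadjusted edgeR p under 0.05. Their sum was 66.4 to 83.1 CPM in HFDfre and 58.0 to 90.5 CPM in HFDfri. The part of these cells in the levels above was not tested.

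**Figure D3:**
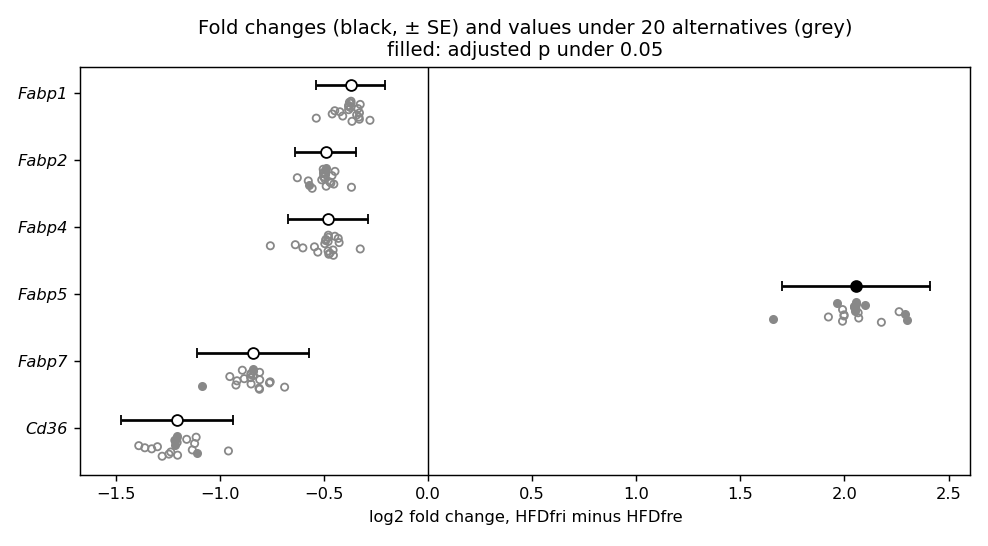
Log2 fold change, HFDfri minus HFDfre, of the 6 genes (black, with SE) and its value under each of 20 other ways of processing or subsets of the libraries (grey), filled where the adjusted p was under 0.05. Fabp5 stays between 1.66 and 2.30 and Cd36 between -1.39 and -0.96, and at most 2 points are filled for each of the other 4 genes.

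Other intracellular lipid-binding proteins, relatives of the FABPs that also bind retinoids, were next examined, and those named here were too low to be tested. Fabp6, Fabp9, Pmp2, Crabp2 and Rbp2 were at 0 in all libraries, and Fabp3, Fabp12, Rbp7 and Crabp1 had at most 7, 15, 6 and 5 counts in a library. Thus Fabp3, the heart form, Fabp6, the ileal bile acid carrier, and Fabp9 and Fabp12 added next to nothing to the FABP RNA counted in these livers.

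Fabp4, Fabp5, Fabp9, Fabp12 and Pmp2 are neighbours on chromosome 3, and the genes within 500 kilobases of the Fabp5 start were compared. This window was chosen after the values of Fabp5 were seen. Of 9 tested genes in it, Fabp5 included, only Fabp5 passed the adjusted threshold. Fabp4, which starts 196 kilobases away on the other strand, had a fold change of the opposite sign. The largest other estimates were those of Chmp4c, a subunit of the membrane-severing ESCRT-III complex (1.36 ± 0.77, SE; edgeR adjusted p = 0.339, at under 1 CPM), and Slc10a5, a gene of the bile acid carrier family (0.92 ± 0.32; edgeR adjusted p = 0.136). The ratio of Fabp5 to Fabp4 CPM within a library was between 0.485 and 1.62 in HFDfre and between 2.14 and 7.58 in HFDfri.

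**Figure D4:**
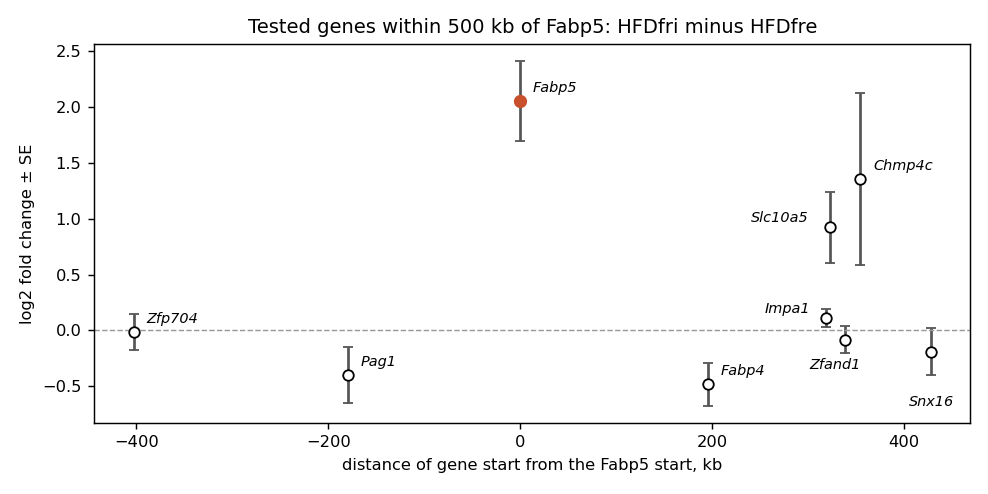
Log2 fold change with SE, HFDfri minus HFDfre, of the 9 tested genes within 500 kb of the Fabp5 start, by the distance of their start in kilobases, filled where the adjusted p was under 0.05. Fabp5 is at 2.05 and the only filled point, and Fabp4 at -0.48 lies 196 kb away.

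The genes whose levels over the 9 libraries were most like each of the 6 were named by Pearson's r of log2 CPM among 10123 tested genes, as a description that includes the difference between groups. For Fabp5 these were 3110082I17Rik (r = 0.982), Cmah, an enzyme of sialic acid synthesis (r = 0.974), and Selenbp2, a selenium binding protein with a close paralog (r = 0.968), with log2 fold changes of 1.62, 0.35 and 2.47. For Cd36 they were Pigk (r = 0.957), Creg1 (r = 0.956) and Gm20528 (r = 0.955), all with lower estimates in HFDfri. For Fabp1 they were Cox7b (r = 0.987) and Atp5e (r = 0.986), subunits of the respiratory chain and ATP synthase, and Fam162a (r = 0.985). Fabp2 was most like Mapre3, Hsd17b10 and Capns1 (r = 0.976, 0.972 and 0.968), Fabp4 like Wdr4, Fam120aos and Secisbp2l (r = 0.975, 0.934 and 0.923), and Fabp7 like Uba7, Stk25 and 9330151L19Rik (r = 0.950, 0.941 and 0.936).

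The steps around the carriers were examined by lists written from general knowledge. Fatty acids that have entered the cell are bound to coenzyme A by acyl-CoA synthetases, and fatty acid transport proteins (Slc27a genes) take part in uptake. Of 23 tested genes of uptake and activation, 1 rose and 0 fell by edgeR's adjusted p (0.499% and 0.556% of all tested genes did), and the median log2 fold change was 0.04 against -0.01 over all tested genes. The gene that rose was Acsl4 (chromosome X, 142317993 to 142390535), the synthetase that prefers arachidonic acid, whose mean CPM went from 19.8 ± 1.74 to 36.3 ± 5.93 (SD). Its HFDfre libraries lay between 17.9 and 22.6 CPM and its HFDfri libraries between 32.2 and 45.1 CPM, with no overlap. The log2 fold change was 0.88 ± 0.11 (SE; edgeR adjusted p = 0.0147), and it passed in 17 of 20 alternatives. Acsm5 and Acsl3 came next, at -0.31 and 0.32 on the log2 scale (edgeR adjusted p = 0.112 and 0.137). With DESeq2 the adjusted p was 0.0404 for Acsm5 and 0.0753 for Acsl3. Acsm5 and Acsl3 each overlap another gene in the annotation.

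PPARalpha is the nuclear receptor that FABP1 is known to supply with fatty acids, and its targets include Fabp1. Of 30 targets tested, 0 rose and 2 fell by edgeR's adjusted p (0.499% and 0.556% of all tested genes did), with a median log2 fold change of -0.10. By DESeq2's adjusted p 0 were higher and 4 lower, against 5.23% and 4.57% of the genes for which it gave one. Those that fell by edgeR were Cyp4a10 and Cyp4a14, enzymes that oxidise fatty acids at the omega end. The mean CPM of Cyp4a10 was 520.0 ± 117 (SD) with the freezer diet and 286 ± 48.6 with the fridge diet (log2 fold change -0.86 ± 0.17, SE; edgeR adjusted p = 0.0396). For Cyp4a14 these were 419.7 ± 192 and 135 ± 50.8 (-1.63 ± 0.33; edgeR adjusted p = 0.0425). Both passed in 7 of 20 alternatives, and both have close paralogs, so their values are uncertain. Acaa1b, a peroxisomal thiolase, came next (-0.53 ± 0.17, adjusted p = 0.118 with edgeR and 0.0285 with DESeq2).

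Cd36 and Fabp4 are also known targets of PPARgamma, which drives lipid storage in adipocytes and in fatty liver. Of 14 tested genes of that kind, 0 passed the adjusted threshold with edgeR or DESeq2, and 4 had an unadjusted edgeR p under 0.05, all lower in HFDfri, as were 9.79% of all tested genes. The 3 of lowest p were Cidea (-2.46 ± 0.76, SE), a lipid droplet protein at 0.867 ± 0.589 and 0.154 ± 0.114 CPM, Plin4 (-1.01 ± 0.38), a lipid droplet coat protein, and Mogat1 (-1.11 ± 0.48), an enzyme of diglyceride synthesis, with edgeR adjusted p of 0.113, 0.164 and 0.219. The median of the list was -0.09.

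Receptors and transcription factors known to act on these genes were then listed. Of 21 tested, 1 rose and 2 fell by edgeR's adjusted p (0.499% and 0.556% of all tested genes did), with a median log2 fold change of -0.12. By DESeq2's adjusted p 3 were higher and 3 lower, against 5.23% and 4.57% of the genes for which it gave one. Nr2c2, which encodes the orphan receptor TR4, rose from 1.82 ± 1.26 to 8.25 ± 4.40 CPM (2.18 ± 0.46, SE, on the log2 scale; edgeR adjusted p = 0.0486). Nr1i3, which encodes the xenobiotic receptor CAR, fell from 515 ± 92.2 to 273 ± 55.3 CPM (-0.92 ± 0.16; edgeR adjusted p = 0.0333), and Rxrg, one of the RXR partners, fell from 5.84 ± 0.441 to 3.28 ± 0.634 CPM (-0.84 ± 0.15; edgeR adjusted p = 0.0354). They passed in 8, 11 and 10 of 20 alternatives. Nr2c2 and Nr1i3 overlap genes on the opposite strand, and the use of strand in the counting is not stated. Nr2c2 was put on the list with its fold change known.

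**Figure D5:**
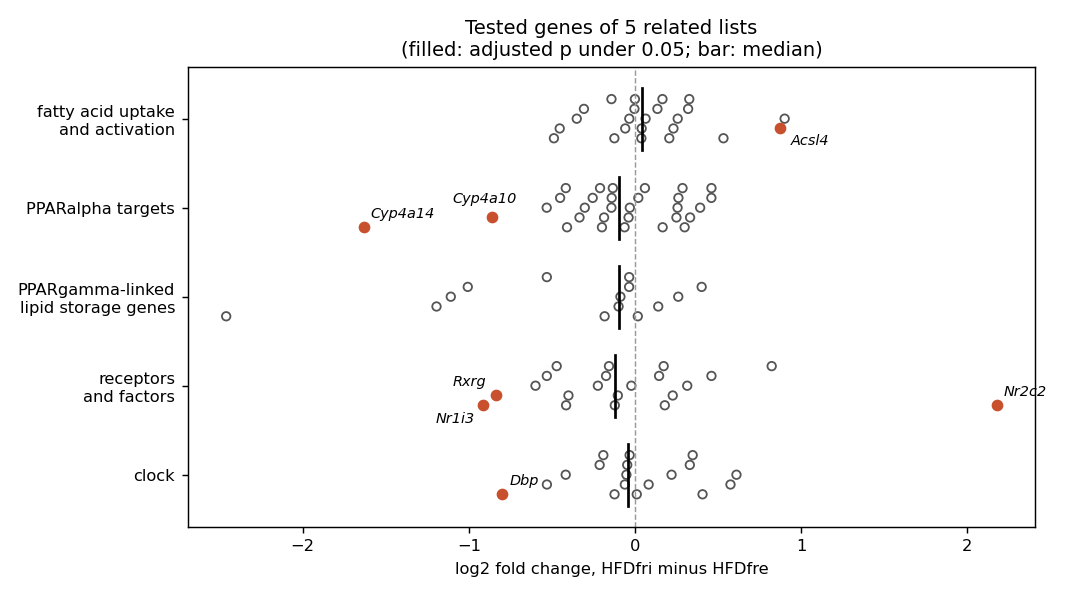
Log2 fold change, HFDfri minus HFDfre (horizontal), of the tested genes of 5 lists around the FABPs and Cd36, filled and named where the edgeR adjusted p was under 0.05, with a bar at each list's median. The medians lie between -0.12 and 0.04, and 7 genes are filled.

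Clock genes were listed because Fabp5 and Fabp7 RNA is known to follow the time of day in liver, and the hour of sampling is not stated in the sources used here. Of 18 tested, 0 rose and 1 fell by edgeR's adjusted p (0.499% and 0.556% of all tested genes did), with a median log2 fold change of -0.04. By DESeq2's adjusted p 2 were higher and 2 lower, as were 5.23% and 4.57% of the genes for which it gave one. Dbp, an output factor of the clock, fell from 82.4 ± 11.2 to 47.4 ± 7.46 CPM (-0.80 ± 0.13, SE; edgeR adjusted p = 0.0293, 13 of 20 alternatives), with no overlap between the groups. Dbp overlaps Sphk2 on the opposite strand. Clock itself (0.58 ± 0.14, edgeR adjusted p = 0.0665) and Bhlhe40 (0.61 ± 0.16, edgeR adjusted p = 0.0801) did not pass with edgeR. Both passed with DESeq2 (adjusted p = 0.00650 and 0.00943). Their part in the levels of Fabp5 and Fabp7 was not tested.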

How the data were processed

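Liver RNA-seq of 5 HFDfre and 4 HFDfri libraries was analysed, with groups from the sample titles and every column matched by the code in a title. Paired-end reads were aligned with HISAT2, and the submitters' processing notes also name StringTie and mm10. The annotation, the strand setting and filters are not given in the sources used here, and the labels and the study's methods name different library kits. The values the authors deposited are estimated counts per gene, whole numbers not scaled between libraries. They were rounded, which changed nothing.

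Low genes were removed by filterByExpr, given the groups. HFDfri minus HFDfre was then tested by quasi-likelihood in edgeR 4.0.16 (R 4.3.3), with TMM and no covariate, and p-values were adjusted by Benjamini-Hochberg over all 14220 tested genes at a threshold of 0.05. The SE is the log2 fold change divided by the square root of F. Log2 CPM used a prior count of 2. Alternatives were DESeq2 1.42.0 (the study's tool), limma-voom 3.58.1, other scalings and filters, robust dispersion, values divided by 4, the Gm26924 share as a covariate or limit, a replicate block, and each library left out. Fits were tested on simulated data.

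Coordinates are from GENCODE M21 (GRCm38), which holds 96.5% of the gene identifiers. Similar transcripts were sought with blastn 2.17.0. The genes, lists and tests were chosen with earlier results of these data known. Named from each list were the genes past the adjusted threshold and the 3 of lowest p. From all genes, the 3 with the highest r to each member were named, if their mean log2 CPM was at least 1, as were near-identical copies. Limits for a count of 0 cover counting error only. A gene of the lists is not reported here.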

Additional observations from a re-analysis of the deposited data

How the results depend on the processing

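The direction of all 6 genes was the same in each of the 20 alternatives. The number of the 6 past the adjusted p, which was 1, became 4 with DESeq2, 2 with at least 10 counts in every library and 2 with values divided by 4. It became 0 with robust dispersion, with the Gm26924 share as a covariate and within the libraries under 3% of it, where 6, 6 and 4 of the 6 had an unadjusted p under 0.05. The smaller number of libraries is part of the last setting, and for the others the cause was not tested. Leaving out 1 library gave from 0 to 4, with 0 without HFDfre 2, 3, 4 or 5 or HFDfri 3 or 4 (4 to 6 of the 6 at an unadjusted p under 0.05) and 4 without HFDfri 1, where 1106 genes passed in place of 150. Over the alternatives, the adjusted p of Fabp5 ran from 3.94e-04 to 0.408 and passed in 10 of 20, and that of Cd36 from 2.20e-04 to 0.210 and passed in 4. Fabp2 and Fabp7 passed in 2 each, with DESeq2 and without HFDfri 1, and Fabp1 and Fabp4 in 0. A prior count of 10 moved the difference of mean log2 CPM of each gene by less than the spread between libraries.

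The replicate numbers are shared between the groups but do not pair the libraries: same-numbered libraries deviated together with correlations between -0.136 and 0.0813. With the replicate block 0 of the 6 genes passed the adjusted p, as did 0 of all genes, and 4 of the 6 had an unadjusted p under 0.05.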

Other observations

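Markers of 3 further cell types were summed beside the FABPs and Cd36. Of 6 stellate cell markers, 0 passed edgeR's adjusted threshold and 1 (Des, lower) had an unadjusted p under 0.05, with sums of 95.4 to 152 CPM in HFDfre and 80.8 to 139 CPM in HFDfri. Of 5 cholangiocyte markers, 0 passed, and 1 (Sox9) had an unadjusted p under 0.05 and passed with DESeq2. The mean CPM of Sox9 was 1.90 ± 0.385 (SD) with the freezer diet and 3.62 ± 1.41 with the fridge diet. All 6 lymphocyte markers had lower estimates in HFDfri, at a summed 1.53 to 3.87 CPM in HFDfre and 0.774 to 2.04 CPM in HFDfri, and 0 passed or had an unadjusted edgeR p under 0.05. Of the 7 hepatocyte markers 0 passed with edgeR, and 2 higher and 1 lower passed with DESeq2. Hnf4a, the central liver transcription factor, which also acts on Fabp1, was at 327 ± 22.3 and 450 ± 57.2 CPM with no overlap between the groups. Its adjusted p was 0.0566 with edgeR and 0.00195 with DESeq2.

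Apoa4, the enterocyte marker that liver also makes, was at 592 to 2491 CPM in HFDfre and 458 to 1132 CPM in HFDfri, a log2 fold change of -0.86 ± 0.35 (SE; edgeR adjusted p = 0.196).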
